A study of Mus musculus with 27 samples.

Results

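The amino acid response and endoplasmic reticulum (ER) stress genes followed here are 40 mouse genes out of the 51826 gene identifiers in the deposited count files. They were taken as a named list: targets of the transcription factor ATF4, enzymes of serine and asparagine synthesis, amino acid transporters, cytosolic tRNA synthetases and genes of the unfolded protein response, each matched by gene identifier without its version to the GENCODE mouse annotation, release 21. All 40 were found, and all 40 passed the filter on low counts in every comparison. By role they comprise 9 transcription factors and regulators, 5 stress effectors, 8 enzymes of amino acid and one-carbon synthesis, 7 amino acid transporters, 8 cytosolic tRNA synthetases and 3 ER folding and degradation genes.

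RNA was sequenced from 3 lines of mouse embryonic stem cells: wild-type E14 cells, a Quaking knockout (KO) line and a line labelled as a Sam68 knockout, both on the E14 background. Quaking (gene Qk) and Sam68 (gene Khdrbs1) are RNA-binding proteins of the STAR family, whose role in early mammalian development is the question of the series. Samples were taken at days 0, 3 and 10 of embryoid body differentiation, in which stem cells form floating aggregates and leave pluripotency. There were 3 biological replicates in each of the 9 groups. No treatment with an amino acid starvation or ER stress agent is named in the labels. Each knockout is represented by 1 line, so an effect of the gene and a peculiarity of that line cannot be told apart.

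When amino acids run short or unfolded proteins collect in the ER, kinases phosphorylate the translation initiation factor eIF2, general translation falls and the ATF4 mRNA is translated more. ATF4 dimerises with C/EBP proteins and binds response elements in the promoters of genes for amino acid synthesis, uptake and tRNA charging. In parallel, the ER sensor IRE1 splices the Xbp1 mRNA and ATF6 is cleaved, which raises ER chaperones. Pluripotent mouse cells depend on a high supply of amino acids, among them threonine, glutamine and serine, and secretory cells are known for a high load of ER folding.

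Libraries held from 56461674 to 77257496 counts in total. In the knockout check, Qk was lower but not lost in the Quaking KO line, at 159 ± 9.35 against 235 ± 4.22 CPM (counts scaled to an equal library total, mean ± SD, n = 3) in wild type at day 0, a log2 fold change (log2FC, ± standard error) of -0.58 ± 0.04 (adjusted p = 1.85e-09). Qk was lower in that line at day 3 as well, by -0.95 ± 0.05 (adjusted p = 2.79e-09), and at day 10 by -0.41 ± 0.06 (adjusted p = 0.00232). Khdrbs1 did not pass the test in the line labelled Sam68 at day 0, with means of 92.3 against 98.9 CPM and a log2FC of -0.03 ± 0.04 (adjusted p = 0.576). At day 3 it was lower, with a log2FC of -0.70 ± 0.06 (adjusted p = 1.15e-07), and at day 10 it did not pass, at -0.25 ± 0.13 (adjusted p = 0.132). Each gene was also lower in the other line on some days. In Quaking KO, Khdrbs1 stood at 73.9 against 98.9 CPM at day 0, a log2FC of -0.43 ± 0.04 (adjusted p = 7.42e-08). It did not pass there at day 3 (adjusted p = 0.582) or day 10 (0.585). In the line labelled Sam68, Qk was lower at day 0 by -0.10 ± 0.04 (adjusted p = 0.0368) and at day 3 by -0.30 ± 0.04 (adjusted p = 1.81e-05). At day 10 Qk did not pass (adjusted p = 0.755). Which part of either gene was removed is not stated in the labels, and the gene count is no measure of the protein. Because Khdrbs1 did not pass at days 0 and 10, the libraries with that label are called Sam68-labelled throughout. The counts cannot decide whether either protein was lost. They also carry a run of library numbers separate from that of wild type and Quaking KO, and whether that marks a batch cannot be told apart from the label. CPM were scaled over all 27 libraries and each log2FC over the libraries of its own fit, so the ratio of printed means and the log2FC differ by a common shift, for the Sam68-labelled line at day 0 by 0.07 log2 units over the median member. The 6 pluripotency markers all had a mean of at least 1 CPM in all 9 groups, and their summed level at day 0 was 2845 to 3027 CPM in wild type, 3389 to 3579 in Quaking KO and 2014 to 2039 in the Sam68-labelled line. The p-values below measure only the spread between these samples, which may be technical, since how the biological replicates were grown apart is not stated.

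Of the 40 members, 35 had a promoter window in the RefSeq table for GRCm38.p6. A window runs from 250 bases before to 50 bases after the start that RefSeq gives. The C/EBP-ATF response element, the site known to bind ATF4 with a C/EBP partner, was searched as TGATGNAA on either strand, whose reverse reads TTNCATCA. It occurred in 11 of the 35 member windows (31.4%), namely those of Atf3, Chac1, Trib3, Slc7a11, Yars, Asns, Gars, Nupr1, Herpud1, Aars and Pycr1, and in 1096 of the 27025 genes with a window (4.06%). The ER stress response element, CCAAT followed by any 9 bases and CCACG, occurred in Hspa5 alone among the members, starting 65 bases before its RefSeq start. Over all 27025 genes it occurred in 35 (0.130%). A match is a stretch of letters and not a shown binding site. The members were listed in part as ATF4 targets, so the shares in members and in all genes are no independent test. The 6 promoters printed here are those of the motif-bearing members whose expression values recur most in the comparisons below, each 5′ to 3′ on the strand of the gene with the matched bases in capitals. They lie on GRCm38.p6 at chr7:126625421-126625720 (minus strand) for Nupr1, chr3:50443564-50443863 (minus strand) for Slc7a11, chr2:119350992-119351291 (plus strand) for Chac1, chr1:191183284-191183583 (minus strand) for Atf3, chr6:7693160-7693459 (minus strand) for Asns and chr2:152344011-152344310 (minus strand) for Trib3.
Nupr1: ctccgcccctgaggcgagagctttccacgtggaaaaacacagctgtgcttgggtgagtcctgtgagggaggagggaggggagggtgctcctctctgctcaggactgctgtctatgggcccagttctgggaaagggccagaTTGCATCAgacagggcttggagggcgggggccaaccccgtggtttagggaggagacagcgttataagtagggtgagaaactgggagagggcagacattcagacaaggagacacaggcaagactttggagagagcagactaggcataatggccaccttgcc
Slc7a11: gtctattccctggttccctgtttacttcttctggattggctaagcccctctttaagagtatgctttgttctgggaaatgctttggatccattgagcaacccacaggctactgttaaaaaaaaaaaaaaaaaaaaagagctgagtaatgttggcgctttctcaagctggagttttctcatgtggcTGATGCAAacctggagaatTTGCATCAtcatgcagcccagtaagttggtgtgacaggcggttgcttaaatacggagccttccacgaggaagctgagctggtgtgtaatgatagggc
Chac1: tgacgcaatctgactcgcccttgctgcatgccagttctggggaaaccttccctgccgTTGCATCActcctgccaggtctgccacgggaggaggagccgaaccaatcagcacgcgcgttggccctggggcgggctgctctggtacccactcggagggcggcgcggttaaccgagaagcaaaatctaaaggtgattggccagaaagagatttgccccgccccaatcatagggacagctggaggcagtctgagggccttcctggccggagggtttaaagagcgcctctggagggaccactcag
Atf3: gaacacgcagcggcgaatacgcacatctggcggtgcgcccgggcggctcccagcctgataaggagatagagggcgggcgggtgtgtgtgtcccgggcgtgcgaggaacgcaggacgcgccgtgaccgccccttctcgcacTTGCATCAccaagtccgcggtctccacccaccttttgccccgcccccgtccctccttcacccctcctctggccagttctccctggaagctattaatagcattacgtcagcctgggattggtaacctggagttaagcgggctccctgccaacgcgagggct
Asns: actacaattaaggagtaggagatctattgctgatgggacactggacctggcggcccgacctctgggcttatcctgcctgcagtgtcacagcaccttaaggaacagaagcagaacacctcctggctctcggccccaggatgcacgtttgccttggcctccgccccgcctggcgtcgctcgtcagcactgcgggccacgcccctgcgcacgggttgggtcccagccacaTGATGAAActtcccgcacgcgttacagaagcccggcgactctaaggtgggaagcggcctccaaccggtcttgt
Trib3: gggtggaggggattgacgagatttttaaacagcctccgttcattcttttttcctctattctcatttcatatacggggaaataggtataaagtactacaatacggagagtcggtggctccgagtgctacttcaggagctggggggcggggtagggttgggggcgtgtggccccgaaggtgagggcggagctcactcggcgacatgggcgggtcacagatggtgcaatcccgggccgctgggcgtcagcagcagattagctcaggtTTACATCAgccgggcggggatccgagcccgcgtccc
Counted from the RefSeq start, the match began at -110 in Nupr1, at -66 and -47 in Slc7a11, at -193 in Chac1, at -110 in Atf3, at -23 in Asns and at 15 in Trib3. The last lies after the RefSeq start. In the GENCODE annotation the minus-strand genes Asns and Trib3 start elsewhere, at 7693254 and 152344032. By those starts the Asns match lies inside the gene and the Trib3 match before it. The GENCODE starts of Nupr1, 126630861, and Atf3, 191218039, lie outside the printed windows. In Slc7a11 the 2 matches lie on opposite strands.

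Wild-type stem cells held these genes at widely different levels per length of exon. Divided by the kilobases of exon, the day 0 means ran from 0.216 CPM per kilobase for Slc7a11, the cystine carrier of the cystine-glutamate exchanger, through 1.09 for Vldlr and 1.55 for Cebpb, to 129 for the ER chaperone Hspa5 (BiP), 164 for Atf4, 207 for asparagine synthetase (Asns) and 215 for the glycyl-tRNA synthetase Gars. On the same per-length scale Hspa5 stood at 172 at day 10, the highest of the 40 at that day, while Asns had come down to 23.6 and Gars to 59.5.

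Leaving the stem cell state, wild-type cells lowered most of the list. From day 0 to day 3, 33 of 40 members fell and 3 rose; of the 21060 genes tested, 60.9% were called, 30.8% higher and 30.1% lower (edgeR quasi-likelihood test, Benjamini-Hochberg adjusted p under 0.05, as for every call below). The median log2FC was -0.94 over the members and 0.01 over all genes, and 19 members fell at least 2-fold, as did 14.5% of the genes tested. The 8 synthesis enzymes and the 8 tRNA synthetases all fell, as did 8 of the 9 transcription factors and regulators, 5 of the 7 transporters and 3 of the 5 effectors, while of the ER genes 1 fell and 2 did not pass. The falls of the synthesis enzymes ran from -2.47 for Asns to -0.44 for Phgdh, and those of the synthetases from -1.17 for Aars to -0.28 for Wars. The pluripotency markers summed to 2845 to 3027 CPM at day 0 and 1329 to 1409.6 at day 3. The 5 primitive streak markers, none at 0, summed to 4.99 to 5.44 CPM at day 0 and 526 to 792 at day 3. In such bulk samples fewer cells of a type and less RNA per cell cannot be told apart, and the part of the markers in these changes was not tested.

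**Figure D1:**
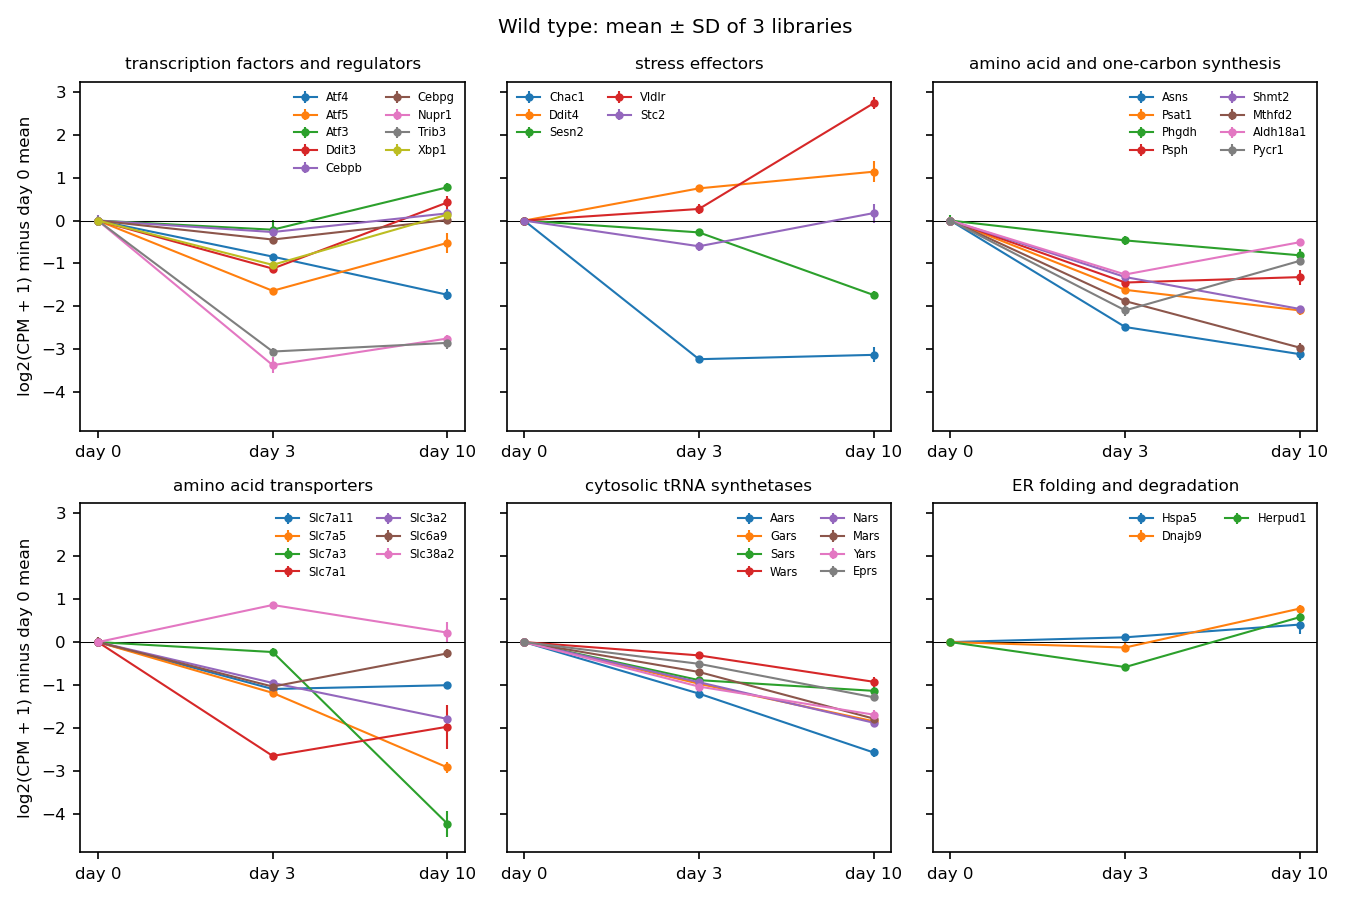
The wild-type course of the 40 genes in 6 panels by role, with the day (0, 3, 10) on the horizontal axis and log2(CPM + 1) minus its day 0 mean on the vertical axis. Points are means of 3 libraries and bars their SD. The synthesis enzymes and tRNA synthetases all lie below 0 at days 3 and 10, whereas Vldlr, at 79.2 CPM on day 10, and Ddit4, at 67.3, lie above it.

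Among the regulators, Nupr1, a small stress-induced chromatin protein, stood at 17.1, 17.7 and 17.8 CPM in the wild-type libraries at day 0, at 0.538, 0.980 and 0.887 at day 3 and at 1.69, 1.64 and 1.95 at day 10. The 3 days did not overlap, with day 0 high, day 3 below 1 CPM and day 10 between. It fell by a log2FC of -4.41 ± 0.15 (adjusted p = 2.78e-11), or 21.3-fold, and then rose by 1.13 ± 0.17 (adjusted p = 3.66e-05). Trib3, a pseudokinase that is a target and a feedback inhibitor of ATF4, went from 55.1, 57.3 and 63.0 CPM to 6.08, 5.75 and 6.62, a log2FC of -3.22 ± 0.09 (adjusted p = 4.01e-12), and read 7.95, 7.31 and 6.46 at day 10. Its day 3 and day 10 libraries overlapped. Ddit3 (CHOP), the stress-induced C/EBP family member, and Atf5, an ATF4 paralogue, were lowest at day 3. Atf5 had 15.3 ± 0.277, 4.26 ± 0.263 and 10.5 ± 1.81 CPM at days 0, 3 and 10, so day 10 stayed below day 0. For Ddit3 the libraries held 8.40, 8.53 and 8.62 CPM at day 0, 3.13, 3.39 and 3.62 at day 3 and 10.8, 13.5 and 11.1 at day 10, with day 10 the highest and no overlap. The rise from day 3 to day 10 was 1.81 ± 0.10 (adjusted p = 2.42e-09). Ddit3, at chr10:127290774-127296288 on GRCm38, overlaps the end of Mars on the other strand, and 4.38% of its 50-base windows occur in Mars or in a second gene entry of the same name, so its count is uncertain to that extent.

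Atf4 mRNA itself fell at both steps, which says nothing of its translation. The libraries held 371, 386 and 406 CPM at day 0, 207, 214 and 227 at day 3 and 113, 128 and 108 at day 10, with log2FC of -0.81 ± 0.07 (adjusted p = 3.34e-07) and -0.89 ± 0.07 (adjusted p = 8.4e-08). Each day lay wholly below the one before. Xbp1, the transcription factor of the IRE1 branch, went down and up again: 76.5, 76.2 and 83.0 CPM, then 35.9, 37.5 and 40.3, then 83.5, 91.4 and 85.1. Day 3 stood apart as the low day, with a rise to day 10 of 1.20 ± 0.07 (adjusted p = 1.68e-09). Atf3, a stress-induced factor of the same family as ATF4, did not pass from day 0 to day 3, with a log2FC of -0.20 ± 0.11 (adjusted p = 0.152), and rose to day 10 by 1.07 ± 0.11 (adjusted p = 1.02e-06), from 8.02 ± 1.32 to 16.8 ± 1.19 CPM.

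The effectors split. Chac1, which degrades glutathione, read 30.8, 30.5 and 34.1 CPM at day 0 and 2.38, 2.43 and 2.65 at day 3 and 3.11, 2.88 and 2.27 at day 10. All day 0 libraries lay above all later ones, and the first step was -3.65 ± 0.11 (adjusted p = 7.9e-12), or 12.5-fold down. Ddit4 (REDD1), an inhibitor of the mTORC1 kinase, moved the other way, from 29.1, 28.4 and 31.6 CPM to 48.0, 54.0 and 50.1 and then 60.8, 81.3 and 59.8. It rose by 0.80 ± 0.11 (adjusted p = 1.92e-05) at the first step, and days 3 and 10 did not overlap day 0. Vldlr, a lipoprotein receptor that PERK and ATF4 raise under ER stress, stood at 11.1, 10.5 and 11.3 CPM at day 0, 14.3, 14.0 and 12.2 at day 3 and 86.5, 79.5 and 71.5 at day 10. The day 10 libraries stood far above the rest, 7.38-fold over day 0 with a log2FC of 2.88 ± 0.09 (adjusted p = 1.88e-12). Several marker lists of differentiated tissues also had far higher sums at day 10 than at day 0. The 5 heart muscle markers summed to 7.11 to 7.79 CPM in day 0 libraries against 616 to 681 in day 10 libraries, and the summed CPM were 10.7 to 12.1 and 6397 to 8338 for 5 fibroblast and matrix markers. For 5 erythroid markers they were 0.374 to 0.833 and 438 to 566, for 5 macrophage markers 0.114 to 0.265 and 156 to 209.5, for 4 endothelial markers 61.2 to 64.1 and 252 to 266, and for 5 trophoblast markers 1.32 to 1.46 and 52.5 to 54.6. At day 0, 1 heart muscle, 2 macrophage and 2 trophoblast markers were at 0, and at day 10 none of any list was. Of the trophoblast markers only 2 of 5 had a mean of at least 1 CPM at day 10, so their sum does not speak for the whole list. Of the heart muscle markers 4 of 5 did, and in the other lists with higher sums all did. The 5 neural markers went the other way, 118 to 124 and 77.0 to 86.7 CPM, and the part of these lists in the Vldlr change was not tested. Sesn2, a leucine-sensing inhibitor of mTORC1, fell from 146 ± 8.44 CPM at day 3 to 52.4 ± 3.69 at day 10, a log2FC of -1.47 ± 0.07 (adjusted p = 2.24e-10).

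**Figure D2:**
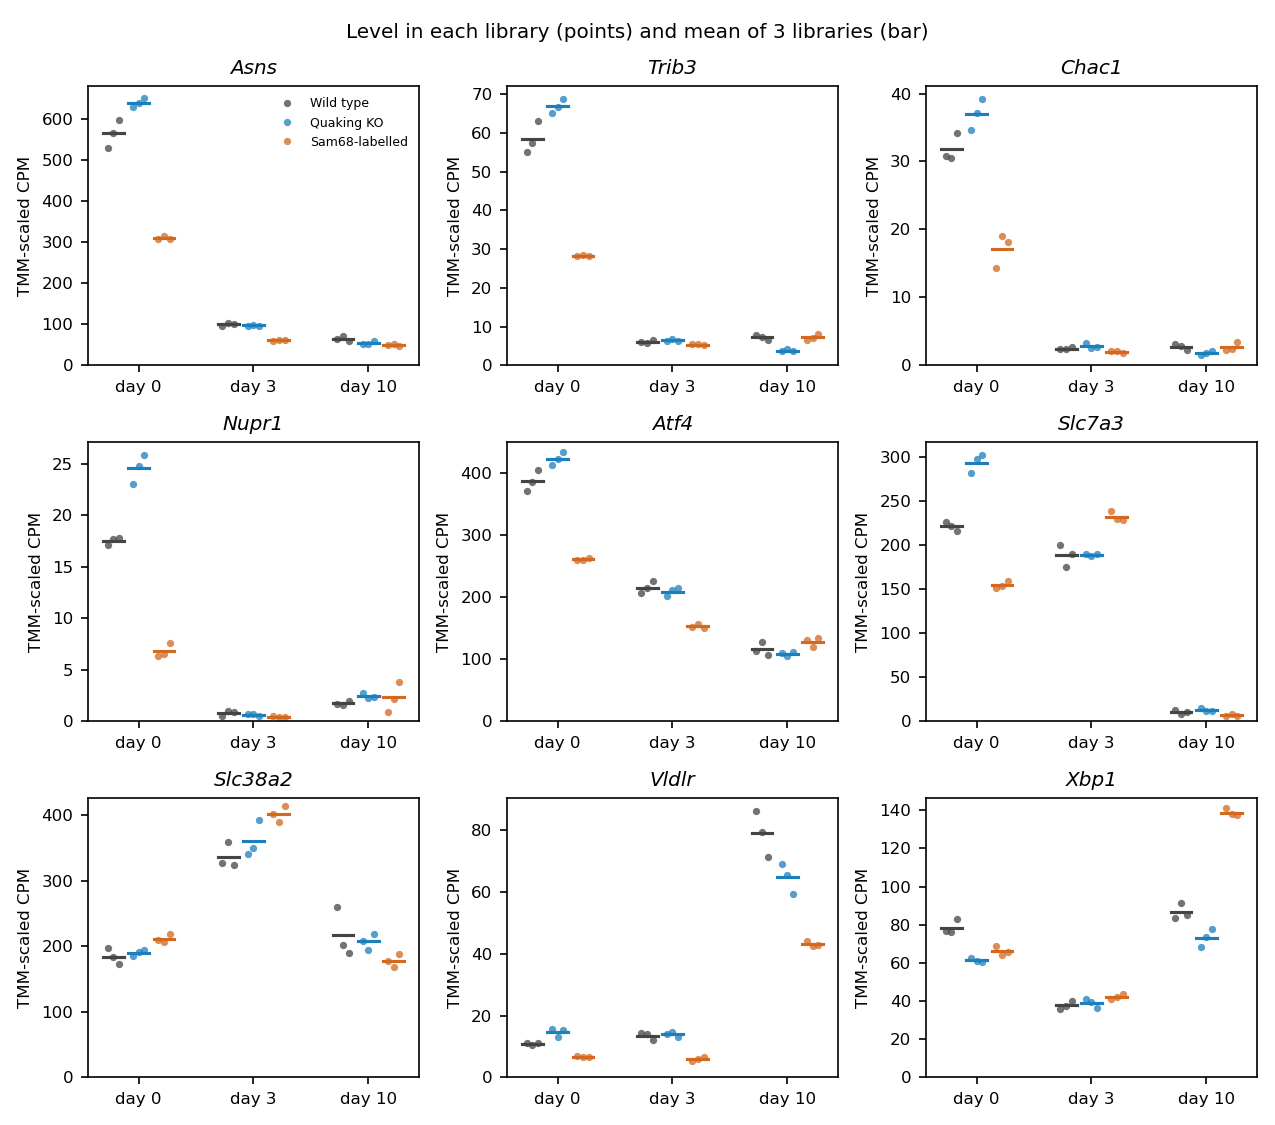
TMM-scaled CPM of 9 members in each library, by line and day. Points are libraries and bars are the mean of 3. Asns, Trib3, Chac1 and Nupr1 are highest at day 0 in all 3 lines, where the Sam68-labelled points lie lowest and the Quaking KO points highest, and the day 10 points of Vldlr lie above the earlier days in every line.

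Asparagine synthetase, at chr6:7675169-7693254 on chromosome build GRCm38, was the most abundant of the synthesis enzymes per length at day 0. Its libraries held 531, 567 and 598 CPM at day 0, 96.5, 103 and 101 at day 3 and 63.6, 70.6 and 59.2 at day 10. Every day lay below the one before without overlap, by -2.47 ± 0.08 (adjusted p = 9.96e-12) and -0.63 ± 0.07 (adjusted p = 2.7e-06). Of the serine pathway, Phgdh makes the first step, Psat1 the second and Psph the last, and Shmt2 and Mthfd2 pass the one-carbon unit on in mitochondria. Between day 0 and day 10 Psat1 went from 476 ± 24.3 to 111 ± 8.29 CPM, a log2FC of -2.07 ± 0.07 (adjusted p = 8.55e-12). Over the same days Mthfd2 went from 188 ± 4.94 to 23.3 ± 1.86 CPM, a log2FC of -2.98 ± 0.07 (adjusted p = 2.8e-13). Phgdh moved less, from 245 ± 22.9 to 139.7 ± 14.8 CPM, and is uncertain, since 47.8% of its 50-base windows occur in 3 other annotated genes. The proline enzymes Aldh18a1 and Pycr1 fell to day 3 and rose again to day 10, Pycr1 by 1.29 ± 0.08 (adjusted p = 8.76e-09) from 5.61 ± 0.568 to 13.7 ± 0.407 CPM.

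Transporters of cationic amino acids fell in wild type at different steps. Slc7a3 (CAT3), at chrX:101079210-101086020, read 226, 222 and 216 CPM at day 0, 200.3, 176 and 189.9 at day 3 and 13.3, 8.48 and 11.1 at day 10. Days 0 and 3 lay close together and day 10 far below, with -0.20 ± 0.11 (adjusted p = 0.133) for the first step, not called, and -4.10 ± 0.13 (adjusted p = 5.58e-12), or 17.2-fold, for the second. Slc7a1 (CAT1) had already fallen at day 3, from 104, 108 and 108 to 15.2, 16.7 and 16.3 CPM, a log2FC of -2.70 ± 0.19 (adjusted p = 3.17e-08). At day 10 it read 40.1, 22.2 and 20.4, with replicate 1 well above the other two. Slc7a5 (LAT1), the carrier of large neutral amino acids, and its heavy chain Slc3a2 fell at both steps, Slc7a5 from 349, 358 and 387 through 154, 163 and 162 to 52.8, 44.6 and 44.6 CPM. No library of a later day reached one of an earlier day, and the second fall was -1.75 ± 0.07 (adjusted p = 6.82e-11). Slc38a2 (SNAT2), the starvation-induced carrier of small neutral amino acids, rose from day 0 to day 3, with 197, 183 and 172 CPM at day 0 and 326, 358 and 324 at day 3. The groups did not overlap and the log2FC was 0.90 ± 0.10 (adjusted p = 3.18e-06).

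The tRNA synthetases, which load amino acids onto their tRNAs, fell together and in steps. All 8 fell from day 0 to day 3 and all 8 again to day 10, over the whole course by log2FC between -0.90 for the tryptophan enzyme Wars and -2.55 for the alanine enzyme Aars. Aars went from 889.5 ± 19.2 to 149 ± 10.4 CPM, and 13.8% of its 50-base windows also occur in Exosc6. The ER genes ended higher. Hspa5 read 547, 536 and 551 CPM at day 0, 560.2, 601 and 604 at day 3 and 609, 827 and 751 at day 10. Day 10 lay above both earlier days without overlap, though widely spread, and the rise from day 3, 0.32 ± 0.10 (adjusted p = 0.00964), lost its call when replicate 2 of day 10 was left out (adjusted p = 0.0527). Herpud1, an ER membrane protein of ER-associated degradation, went from 37.5 ± 0.568 through 24.7 ± 0.793 to 56.9 ± 6.44 CPM, the last step by 1.21 ± 0.08 (adjusted p = 9.83e-09). Over the same days the 8 extraembryonic endoderm markers, which mark a secretory tissue, had summed levels of 59.6 to 64.7, 272 to 298 and 2068 to 2879.7 CPM on days 0, 3 and 10, none of them at 0, and their part in the rise of the ER genes was not tested.

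Members not yet described moved as follows in wild type. Cebpb, the C/EBP protein that joins ATF4 at its response elements, had 2.33 ± 0.296, 1.76 ± 0.206 and 2.74 ± 0.288 CPM at the 3 days, and Cebpg had 37.8 ± 1.86, 27.5 ± 0.327 and 38.2 ± 1.16. Neither passed over the whole course, and Cebpb is uncertain, since 18.1% of its 50-base windows occur in Tmem189, which overlaps it on the other strand. Stc2 likewise did not pass from day 0 to day 10, with 15.9 ± 0.574 and 18.2 ± 2.97 CPM, although it fell to 10.2 ± 0.817 between, by -0.61 ± 0.11 (adjusted p = 0.000191). Dnajb9, an ER co-chaperone of the IRE1 branch, did not pass at the first step and rose at the second by 0.97 ± 0.08 (adjusted p = 1.18e-07), from 12.5 ± 1.01 to 24.3 ± 1.47 CPM.

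From day 3 to day 10, 18 members rose and 19 fell; of the 21060 genes tested, 76.1% were called, 39.6% higher and 36.5% lower. Over the whole course, 9 rose and 28 fell with a median log2FC of -1.28 against 0.01 over all genes; of the 21060 genes tested, 80.8% were called, 41.4% higher and 39.4% lower. Other genes of the pathway were counted as lists. Of 15 other ATF4 targets tested, 2 rose and 10 fell from day 0 to day 3, with a list median of -1.26, and Gdf15, a secreted stress cytokine, had the lowest log2FC at -4.87 ± 0.20 (adjusted p = 1.9e-10). Of 12 other cytosolic tRNA synthetases 0 rose and 8 fell, with a median of -0.36. Of 20 other ER folding and degradation genes 10 rose and 2 fell, with a median of 0.22. Among 17 stress sensors and eIF2 control genes, 3 rose and 8 fell, led upwards by Impact, an inhibitor of the eIF2 kinase GCN2, at 1.45 ± 0.08 (adjusted p = 1.97e-09). Of 19 other amino acid transporters 12 rose and 2 fell, with Slc7a8, the LAT2 light chain, the top at 3.71 ± 0.17 (adjusted p = 5.24e-10).

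At day 0 the Quaking KO line held most of these genes slightly above wild type. Of the 40, 25 rose and 4 fell; of the 19841 genes tested, 39.7% were called, 19.4% higher and 20.3% lower. The median log2FC was 0.16 over the members and 0.00 over all genes, and none reached 2-fold, against 0.998% of all genes tested higher and 3.62% lower by that much. Of the transcription factors and regulators 6 rose and 2 fell, of the effectors 4 rose and 0 fell, of the synthesis enzymes 5 rose and 0 fell, of the transporters 4 rose and 1 fell, of the tRNA synthetases 5 rose and 0 fell and of the ER genes 1 rose and 1 fell. Over the synthesis enzymes log2FC ran from -0.05 for Mthfd2 to 0.32 for Shmt2, and over the synthetases from -0.06 for Gars to 0.27 for Aars. Summed pluripotency markers were also above wild type, at 3389 to 3579 against 2845 to 3027 CPM, 5 of 6 of them called higher. The 8 extraembryonic endoderm markers, none at 0, summed to 39.0 to 42.6 CPM against 59.6 to 64.7, without overlap, and the 5 of them that passed the filter were all called lower. The part of either list was not tested.

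Ddit3 read 12.2, 11.7 and 12.3 CPM in Quaking KO and 8.40, 8.53 and 8.62 in wild type at day 0. The groups lay apart, with a log2FC of 0.49 ± 0.05 (adjusted p = 7.35e-07). Nupr1 stood at 23.0, 24.8 and 25.9 CPM against 17.1, 17.7 and 17.8, again without overlap, a log2FC of 0.48 ± 0.06 (adjusted p = 1.55e-06). Asns, at 629.6, 640.3 and 651 CPM, exceeded all wild-type libraries and the difference was 0.17 ± 0.03 (adjusted p = 0.000505). All 3 differences were small beside the folds of the time course. Slc7a3 was higher by 0.40 ± 0.03 (adjusted p = 1.94e-08) and Slc7a1 by 0.28 ± 0.05 (adjusted p = 0.000122), both carriers of arginine and lysine, with means of 294 ± 10.8 and 130.2 ± 13.0 CPM in Quaking KO.

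Of the 4 members that fell, Xbp1 and Hspa5 belong to the ER branches. Xbp1 read 62.4, 61.1 and 60.6 CPM in Quaking KO and 76.5, 76.2 and 83.0 in wild type, all 3 KO libraries below all wild-type ones, with a log2FC of -0.37 ± 0.04 (adjusted p = 1.84e-07). Hspa5 differed by -0.12 ± 0.03 (adjusted p = 0.0013), at 503 ± 7.67 against 544 ± 7.98 CPM. Slc7a11 read 2.66, 1.96 and 2.60 CPM in Quaking KO and 3.32, 3.04 and 2.68 in wild type. Its libraries did not overlap by a small margin and its call, -0.34 ± 0.13 (adjusted p = 0.0472), was lost with DESeq2 (adjusted p = 0.117), without Quaking KO replicate 2 (0.25) and without wild-type replicates 1 (0.178) or 2 (0.104), and without Sam68-labelled replicate 1, which shares the fit (0.0544). Atf3 was likewise called lower, -0.21 ± 0.07 (adjusted p = 0.0275), and lost its call without Quaking KO replicate 1 (adjusted p = 0.0547) or 3 (0.103), without wild-type replicate 1 (0.0609) or 3 (0.108) and with DESeq2 (0.0646).

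The lists of other pathway genes split in the same comparison. Of 15 other ATF4 targets 10 rose and 1 fell in Quaking KO at day 0, with a median of 0.16. Jdp2, a repressor of the AP-1 and ATF family, was the highest at 1.10 ± 0.07 (adjusted p = 8.84e-10), with 15.3 ± 0.159 CPM against 7.11 ± 0.302 in wild type. Of 12 other cytosolic tRNA synthetases 6 rose and none fell. Of 20 other ER folding and degradation genes, 1 rose and 9 fell, with a median of -0.06, and Derl3, a channel component of ER-associated degradation, was the lowest at -0.80 ± 0.11 (adjusted p = 7.31e-06). Of 17 sensors and eIF2 control genes 6 rose and 5 fell, and of 7 NRF2 targets, genes of the antioxidant response, 2 rose and 4 fell.

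At day 3, 2 of the 40 members were called between Quaking KO and wild type, Atf3 and Slc7a11, both lower; of the 19711 genes tested, 7.01% were called, 3.08% higher and 3.93% lower, so the members' count was near that of all genes. The median log2FC over the members was -0.02 against 0.01 over all genes. Atf3 read 4.38, 5.24 and 5.21 CPM in Quaking KO and 6.50, 8.64 and 8.91 in wild type, every KO library below every wild-type library, with a log2FC of -0.70 ± 0.11 (adjusted p = 0.00128). Slc7a11, named although its mean is under 1 CPM, read 0.462, 0.403 and 0.378 CPM against 0.953, 0.760 and 0.917 with a log2FC of -1.08 ± 0.21 (adjusted p = 0.00429), and the groups again did not overlap. Between these groups the replicate numbers may pair the libraries, a pairing inferred from these data alone. Same-numbered libraries correlated with r of 0.489, 0.210 and 0.154, and over the members alone 0.434, 0.0955 and 0.0866. Not every library correlated best with its own number. Replicate 1, with the highest r, had the largest share of mt-Rnr2 counts in both groups, and the part of that share was not tested. The count of 2 uses no block. With the number as a block on the 9 libraries of the day, 4 members were called, 1 higher and 3 lower. Psph, higher (adjusted p = 0.0456), and Slc7a1, lower (0.0386), were added. The block on the 6 libraries compared, chosen after seeing the data, called 7, 4 higher and 3 lower. The share of all genes called with either block is not given here. Asns had 97.5 ± 1.77 against 100.3 ± 3.44 CPM, a log2FC of -0.04 ± 0.04 (adjusted p = 0.591) that did not pass. Summed pluripotency markers overlapped between the lines at this day, at 1363 to 1516 CPM in Quaking KO and 1329 to 1409.6 in wild type. The 8 extraembryonic endoderm markers, none at 0, summed to 125.5 to 145 CPM in Quaking KO and 272 to 298 in wild type, without overlap and with 6 of 8 called lower, and the 5 primitive streak markers to 348 to 596 and 526 to 792, which overlapped. Their part in the 2 falls was not tested.

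At day 10 the Quaking KO embryoid bodies had 8 members lower and 1 higher; of the 20503 genes tested, 11.7% were called, 4.96% higher and 6.71% lower. Over the members the median was -0.09, against -0.02 over all genes. Trib3 read 3.72, 4.11 and 3.68 CPM in Quaking KO and 7.95, 7.31 and 6.46 in wild type. The groups lay well apart, with a log2FC of -0.94 ± 0.12 (adjusted p = 0.000759). Stc2, a secreted glycoprotein raised by ER stress, read 8.12, 10.8 and 10.9 CPM against 21.3, 18.0 and 15.4, also without overlap, a log2FC of -0.90 ± 0.14 (adjusted p = 0.00243). Ddit3 was lower too, at 8.62, 9.06 and 8.75 CPM against 10.8, 13.5 and 11.1, by -0.45 ± 0.09 (adjusted p = 0.00881).

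The rise at day 10 was that of Aars, 187, 175 and 177 CPM against 138, 159 and 149, by 0.25 ± 0.06 (adjusted p = 0.0188). The libraries did not overlap, yet the call was lost without Quaking KO replicate 1 (adjusted p = 0.0649) or 2 (0.054) and without wild-type replicate 3 (0.0555). Ddit4, Pycr1, Vldlr, Psat1 and Xbp1 were called lower and each lost its call without at least 1 library; Ddit4, for instance, read 31.6, 51.2 and 48.2 CPM against 60.8, 81.3 and 59.8, and its call was lost without Quaking KO replicate 1 (adjusted p = 0.0623), without wild-type replicate 2 (0.117) and without Sam68-labelled replicate 2, which shares the fit (0.051). With only the 6 libraries compared, the count of called members fell from 9 to 4. Ero1l, the ER oxidase, stood out among the other ATF4 targets at -1.17 ± 0.17 (adjusted p = 0.00167), on a list in which 0 rose and 4 fell of 15. Over all genes tested, 4.96% were called higher and 6.71% lower. Summed heart muscle markers were lower in Quaking KO at this day, 133 to 284 against 616 to 681 CPM, and extraembryonic endoderm markers 1522 to 1749 against 2068 to 2879.7; none of these markers was at 0 and their part was not tested.

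In the Sam68-labelled stem cells nearly all of the list stood below wild type. The comparison uses the same wild-type libraries as that of Quaking KO. At day 0, 36 of 40 members fell and 3 rose; of the 19841 genes tested, 74.4% were called, 36.5% higher and 37.9% lower. The median log2FC was -0.45 over the members and -0.01 over all genes. All 5 effectors, all 8 synthesis enzymes and all 8 tRNA synthetases fell, with 8 of 9 transcription factors and regulators, 5 of 7 transporters and 2 of 3 ER genes. The log2FC of the synthesis enzymes ran from -0.85 for Pycr1 to -0.45 for Shmt2, those of the synthetases from -0.70 for Gars to -0.15 for Yars, those of the effectors from -0.82 for Chac1 to -0.37 for Sesn2 and those of the ER genes from -0.45 for Herpud1 to -0.03 for Hspa5. With library totals alone as the scale, chosen after seeing the data, Cebpg, Slc7a5, Slc6a9, Xbp1, Wars and Yars lost their calls, and the median of all genes moved to 0.11. The 8 extraembryonic endoderm markers, summed, stood at 308 to 316 CPM in the Sam68-labelled line and 59.6 to 64.7 in wild type, none at 0, while 5 of 6 pluripotency markers were called lower. Their part in the falls was not tested.

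Nupr1 read 6.30, 6.55 and 7.66 CPM in the Sam68-labelled libraries at day 0 and 17.1, 17.7 and 17.8 in wild type. The groups lay far apart, with a log2FC of -1.29 ± 0.06 (adjusted p = 2.47e-12). Slc7a11 read 0.517, 0.438 and 0.677 CPM against 3.32, 3.04 and 2.68, also far apart, with the lowest log2FC of the list, -2.40 ± 0.17 (adjusted p = 3.74e-10). Its product brings in cystine for glutathione. On the separate list of NRF2 targets 7 of the 7 tested fell, beside 37.9% of all genes tested. They were led by the quinone reductase Nqo1 at -1.22 ± 0.04 (adjusted p = 2.73e-15). Whether these falls and that of Slc7a11 are linked was not tested. Asns, at 308, 316 and 307 CPM, lay below every wild-type library by -0.79 ± 0.03 (adjusted p = 2.53e-13), and Trib3, at 28.2, 28.5 and 28.3, by -0.97 ± 0.04 (adjusted p = 3.01e-13). Atf4 mRNA was lower by -0.49 ± 0.03 (adjusted p = 5.6e-11), at 261 ± 1.90 CPM.

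The 3 rises at day 0 were 2 transporters and Atf3. Slc7a1 read 153, 148 and 149 CPM in the Sam68-labelled line against 104, 108 and 108, with no overlap and a log2FC of 0.57 ± 0.05 (adjusted p = 3.61e-09). Slc38a2 read 209, 206 and 219 CPM against 197, 183 and 172, close but without overlap, at 0.27 ± 0.04 (adjusted p = 1.18e-05). Atf3 overlapped wild type, at 11.7, 10.1 and 9.79 against 9.35, 8.82 and 9.98 CPM, and was called at 0.24 ± 0.07 (adjusted p = 0.00363). Of the other lists at day 0, 13 of 15 other ATF4 targets fell and 1 rose, with a median of -0.47. Of 12 other cytosolic tRNA synthetases 11 fell and 1 rose, and of the 17 mitochondrial synthetases 4 rose and 4 fell. Over all genes tested, 36.5% were called higher and 37.9% lower.

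**Figure D3:**
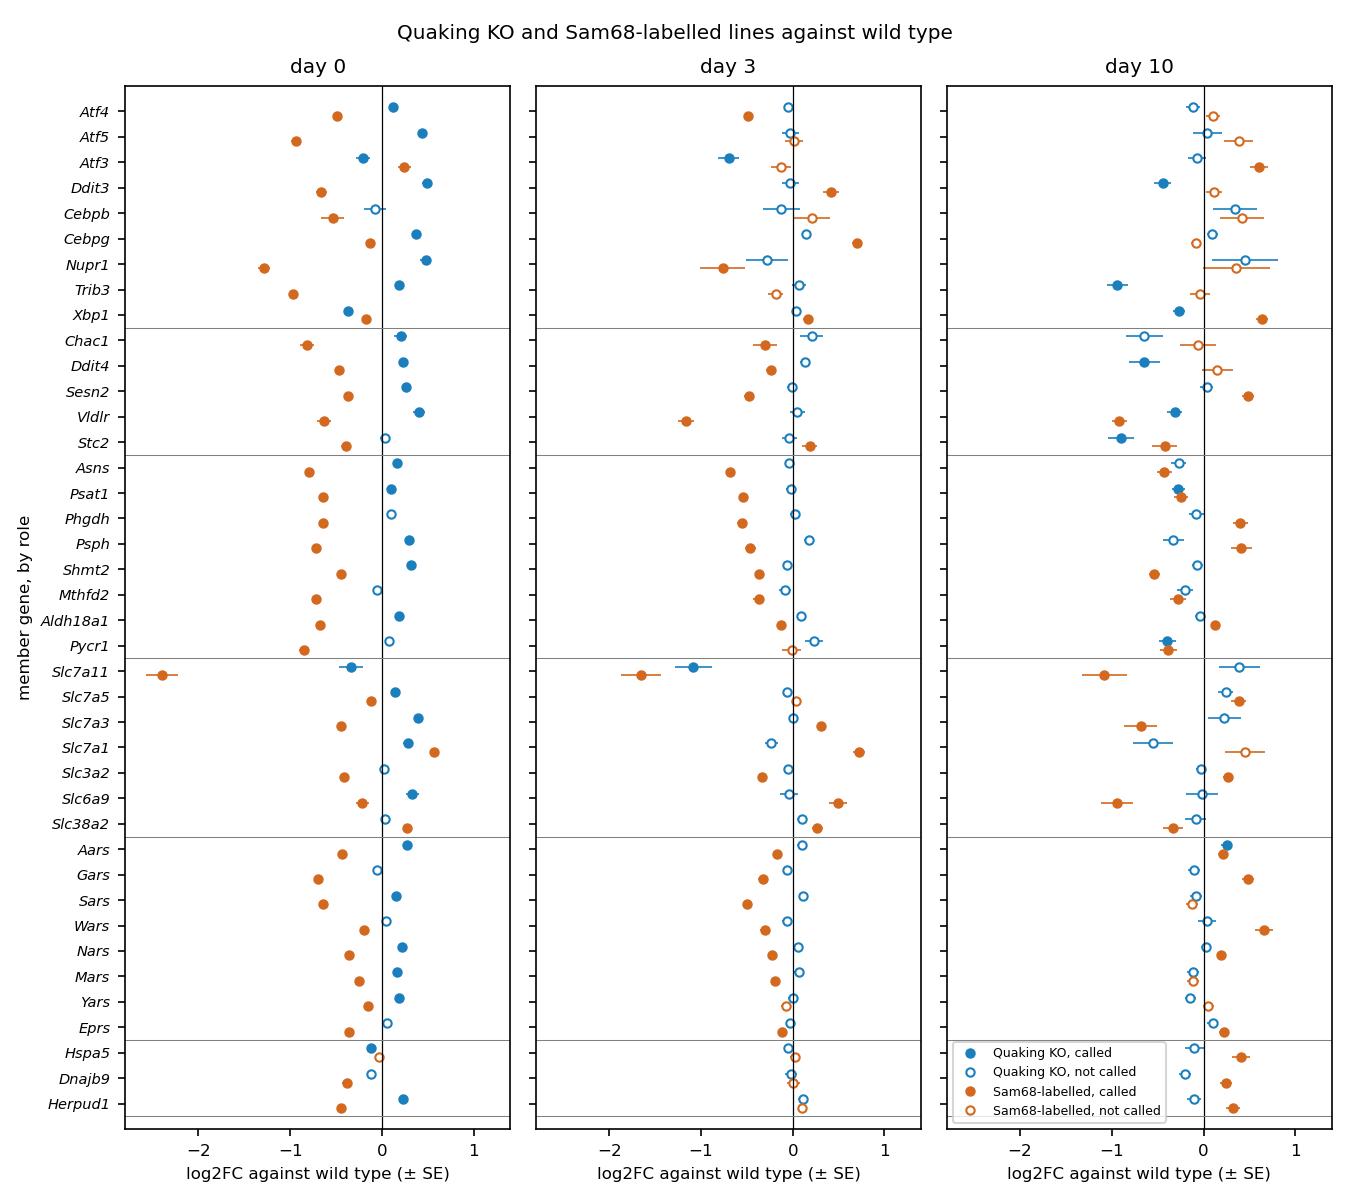
Log2 fold change against wild type of all 40 members at days 0, 3 and 10, in the Quaking KO line (blue) and the Sam68-labelled line (orange), with standard errors as bars. Filled points were called at an adjusted p under 0.05. At day 0 most blue points lie just right of 0 and most orange ones left of it, and at day 3 only 2 blue points are filled. Both sets share the same wild-type libraries, and the fits use no replicate block.

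At day 3 the Sam68-labelled embryoid bodies had 22 members lower and 8 higher; of the 19711 genes tested, 73.1% were called, 36% higher and 37.1% lower. The members' median was -0.18 against -0.00 over all genes, and scaling by library totals alone gave 17 lower and 10 higher. Of the synthesis enzymes 7 fell and none rose, as for the tRNA synthetases, of the effectors 1 rose and 4 fell, of the transporters 4 rose and 2 fell, and none of the 3 ER genes passed. The synthesis enzymes ran from -0.69 for Asns to -0.01 for Pycr1 and the synthetases from -0.49 for Sars to -0.07 for Yars. Asns read 60.6, 62.3 and 62.3 CPM against 96.5, 103 and 101 in wild type, with no overlap and a log2FC of -0.69 ± 0.04 (adjusted p = 5.77e-10). Vldlr read 5.37, 6.01 and 6.54 CPM against 14.3, 14.0 and 12.2, less than the lowest wild-type library by a wide gap, at -1.16 ± 0.09 (adjusted p = 1e-08).

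The rises at day 3 were led by Slc7a1 and Cebpg, the latter a C/EBP partner of ATF4. Slc7a1 read 27.7, 25.5 and 25.7 CPM in the Sam68-labelled line against 15.2, 16.7 and 16.3 in wild type, at 0.72 ± 0.07 (adjusted p = 1.61e-07). Cebpg read 46.2, 43.9 and 42.6 CPM against 27.2, 27.5 and 27.9, at 0.70 ± 0.05 (adjusted p = 3.45e-09). In neither did the groups overlap. Ddit3 was also higher, by 0.42 ± 0.09 (adjusted p = 0.000641), although it had been lower at day 0. Summed primitive streak markers were far lower at this day, 71.0 to 115 against 526 to 792 CPM, and extraembryonic endoderm markers higher, 787 to 886 against 272 to 298. Summed pluripotency markers were lower, 892 to 936 against 1329 to 1409.6 CPM, without overlap. None of these markers was at 0, and their part was not tested.

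By day 10 the ER genes and several tRNA synthetases of the Sam68-labelled line stood above wild type. Of the 40 members 16 rose and 11 fell; of the 20503 genes tested, 50.6% were called, 22.8% higher and 27.8% lower. The members' median log2FC was 0.14 against -0.04 over all genes, and scaling by library totals alone gave 11 higher and 13 lower. All 3 ER genes rose, as did 5 of 8 tRNA synthetases, though that scaling gave 2 of each higher and 2 of the synthetases lower, while of the transporters 2 rose and 4 fell and of the synthesis enzymes 3 rose and 5 fell. The synthetases ran from -0.13 for Sars to 0.65 for Wars and the synthesis enzymes from -0.53 for Shmt2 to 0.41 for Psph. Xbp1 read 141, 138 and 137 CPM against 83.5, 91.4 and 85.1 in wild type, with every library above every wild-type one and a log2FC of 0.64 ± 0.06 (adjusted p = 1.26e-05). Hspa5 read 1001, 1037 and 956 CPM against 609, 827 and 751, without overlap, at 0.41 ± 0.10 (adjusted p = 0.00575). Of the 20 other ER folding and degradation genes 16 rose (12 by library totals alone) and none fell, with a median of 0.30, led by the co-chaperone Dnajc3 at 0.84 ± 0.06 (adjusted p = 8.16e-07). The summed extraembryonic endoderm markers at day 10 were 2605 to 3407 CPM against 2068 to 2879.7 in wild type, an overlap, and the heart muscle markers 1136 to 1274 against 616 to 681. Fibroblast and macrophage markers were lower, at 2954 to 4360.5 against 6397 to 8338 and 35.5 to 45.3 against 156 to 209.5 CPM, and no part of these in the gene changes was tested.

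Wars read 98.1, 117 and 126 CPM at day 10 against 63.8, 71.7 and 74.8 in wild type, with a wide spread but no overlap, at 0.65 ± 0.10 (adjusted p = 0.000231). Vldlr stayed lower, 44.1, 42.6 and 43.0 CPM against 86.5, 79.5 and 71.5, at -0.92 ± 0.08 (adjusted p = 4.5e-06). Slc6a9, the glycine transporter GlyT1, read 3.16, 3.20 and 5.31 CPM against 7.88, 7.07 and 6.78, at -0.94 ± 0.18 (adjusted p = 0.00104). The groups lay apart in both, with Sam68-labelled replicate 3 nearest to wild type in Slc6a9. The Slc6a9 value is uncertain, since 26.3% of its 50-base windows occur in other genes and Ccdc24 lies over it on the other strand, while the strand setting of the counts is not given in the sources used here. Asns remained lower at -0.43 ± 0.08 (adjusted p = 0.00103), with 49.5 ± 1.68 against 64.4 ± 5.79 CPM, whereas Atf4 did not pass, at 0.10 ± 0.08 (adjusted p = 0.285).

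Set directly against each other at day 0, the Quaking KO and Sam68-labelled lines differed in all 40 members. There 35 of 40 members were lower in the Sam68-labelled line than in Quaking KO and 5 higher; of the 19841 genes tested, 75.9% were called, 38.9% higher and 37% lower. The median log2FC was -0.65 against 0.02 over all genes, and 8 members were at least 2-fold lower, as were 9.61% of all genes tested, with Nupr1 at -1.76 ± 0.06 (adjusted p = 1.71e-14), Slc7a11 at -2.06 ± 0.18 (adjusted p = 5.72e-09) and Atf5 at -1.38 ± 0.05 (adjusted p = 1.02e-14). Asns read 308, 316 and 307 CPM in the one and 629.6, 640.3 and 651 in the other, 1.94-fold lower by the fit. Higher in the Sam68-labelled line were Atf3, by 0.45 ± 0.07 (adjusted p = 1.2e-05), and Slc7a1, by 0.29 ± 0.05 (adjusted p = 2.18e-05) or, with library totals alone, by 0.44, with Slc38a2, Xbp1 and Hspa5.

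At day 3, 21 members were lower and 10 higher in the Sam68-labelled line than in Quaking KO; of the 19711 genes tested, 72.1% were called, 35.3% higher and 36.8% lower. Vldlr differed by -1.21 ± 0.08 (adjusted p = 6.2e-09) and Asns by -0.65 ± 0.04 (adjusted p = 1.02e-09), and on the other side Slc7a1 by 0.96 ± 0.07 (adjusted p = 8.73e-09) and Atf3 by 0.57 ± 0.11 (adjusted p = 0.000332). In each of the 4 the libraries of the lines did not overlap. At day 10 the balance lay the other way, 21 higher and 6 lower; of the 20503 genes tested, 56.6% were called, 25.9% higher and 30.7% lower. Xbp1 stood higher by 0.90 ± 0.06 (adjusted p = 7.61e-07) and Slc7a1 by 1.00 ± 0.22 (adjusted p = 0.00229), while Slc7a3 stood lower by -0.92 ± 0.18 (adjusted p = 0.00124) and Slc6a9 by -0.92 ± 0.18 (adjusted p = 0.000991). Trib3, the member with the lowest log2FC between Quaking KO and wild type at this day, read 7.27 ± 0.793 CPM in the Sam68-labelled line and 3.84 ± 0.240 in Quaking KO, a log2FC of 0.90 ± 0.12 (adjusted p = 6.2e-05).

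The time course was also tested within Quaking KO and within the Sam68-labelled line. In Quaking KO from day 0 to day 3, 35 of 40 members fell and 3 rose; of the 20855 genes tested, 69% were called, 34.2% higher and 34.8% lower. Nupr1 went from 23.0, 24.8 and 25.9 to 0.754, 0.749 and 0.494 CPM, by -5.19 ± 0.13 (adjusted p = 1.16e-12), and Chac1 from 34.6, 37.1 and 39.2 to 3.34, 2.53 and 2.76, by -3.67 ± 0.11 (adjusted p = 8.15e-12). In both genes the 2 days lay far apart. Slc38a2 rose by 0.94 ± 0.06 (adjusted p = 9.3e-09) and Ddit4 by 0.68 ± 0.13 (adjusted p = 0.000458).

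From day 3 to day 10, 16 members rose in Quaking KO and 23 fell; of the 20855 genes tested, 78.1% were called, 41.1% higher and 37% lower. Vldlr rose by 2.25 ± 0.08 (adjusted p = 1.33e-11) and Nupr1 by 1.92 ± 0.15 (adjusted p = 4.16e-08), while Slc7a3 fell by 3.82 on the log2 scale, from 189.6 ± 1.10 to 13.1 ± 1.70 CPM (adjusted p = 8.43e-14), and Slc7a5 by 1.39 (adjusted p = 7.63e-12). Trib3 went on down in this line, from 6.31, 6.82 and 6.22 to 3.72, 4.11 and 3.68 CPM without overlap, by -0.71 ± 0.06 (adjusted p = 2.47e-07).

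In the Sam68-labelled line 31 members fell and 6 rose from day 0 to day 3; of the 20646 genes tested, 72.9% were called, 37% higher and 35.9% lower. Nupr1 went from 6.30, 6.55 and 7.66 to 0.491, 0.449 and 0.466 CPM, by -3.87 ± 0.36 (adjusted p = 4.89e-08), and Chac1 from 14.3, 19.0 and 18.2 to 2.12, 2.10 and 1.77, by -3.11 ± 0.15 (adjusted p = 1.05e-11). The days did not overlap in either. Ddit4 rose by 1.06 ± 0.06 (adjusted p = 3.17e-11) and Slc38a2 by 0.92 ± 0.04 (adjusted p = 6.33e-12), with Slc7a3 higher as well, from 151, 154 and 159.7 to 239, 230.5 and 228 CPM, by 0.58 ± 0.07 (adjusted p = 1.45e-06).

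From day 3 to day 10, 22 rose and 17 fell in the Sam68-labelled line; of the 20646 genes tested, 86% were called, 43.5% higher and 42.5% lower. Slc7a3 had the lowest log2FC, -5.04 ± 0.09 (adjusted p = 1.49e-17), to 5.90, 8.77 and 6.42 CPM. Vldlr rose by 2.87 ± 0.06 (adjusted p = 9.03e-17) and Nupr1 by 2.32 ± 0.39 (adjusted p = 3.67e-05), the latter with day 10 libraries spread from 0.946 to 3.82 CPM. All 3 ER genes rose, Herpud1 by 1.49 ± 0.04 (adjusted p = 6.31e-15) from 26.3 ± 0.628 to 73.2 ± 1.72 CPM.

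**Figure D4:**
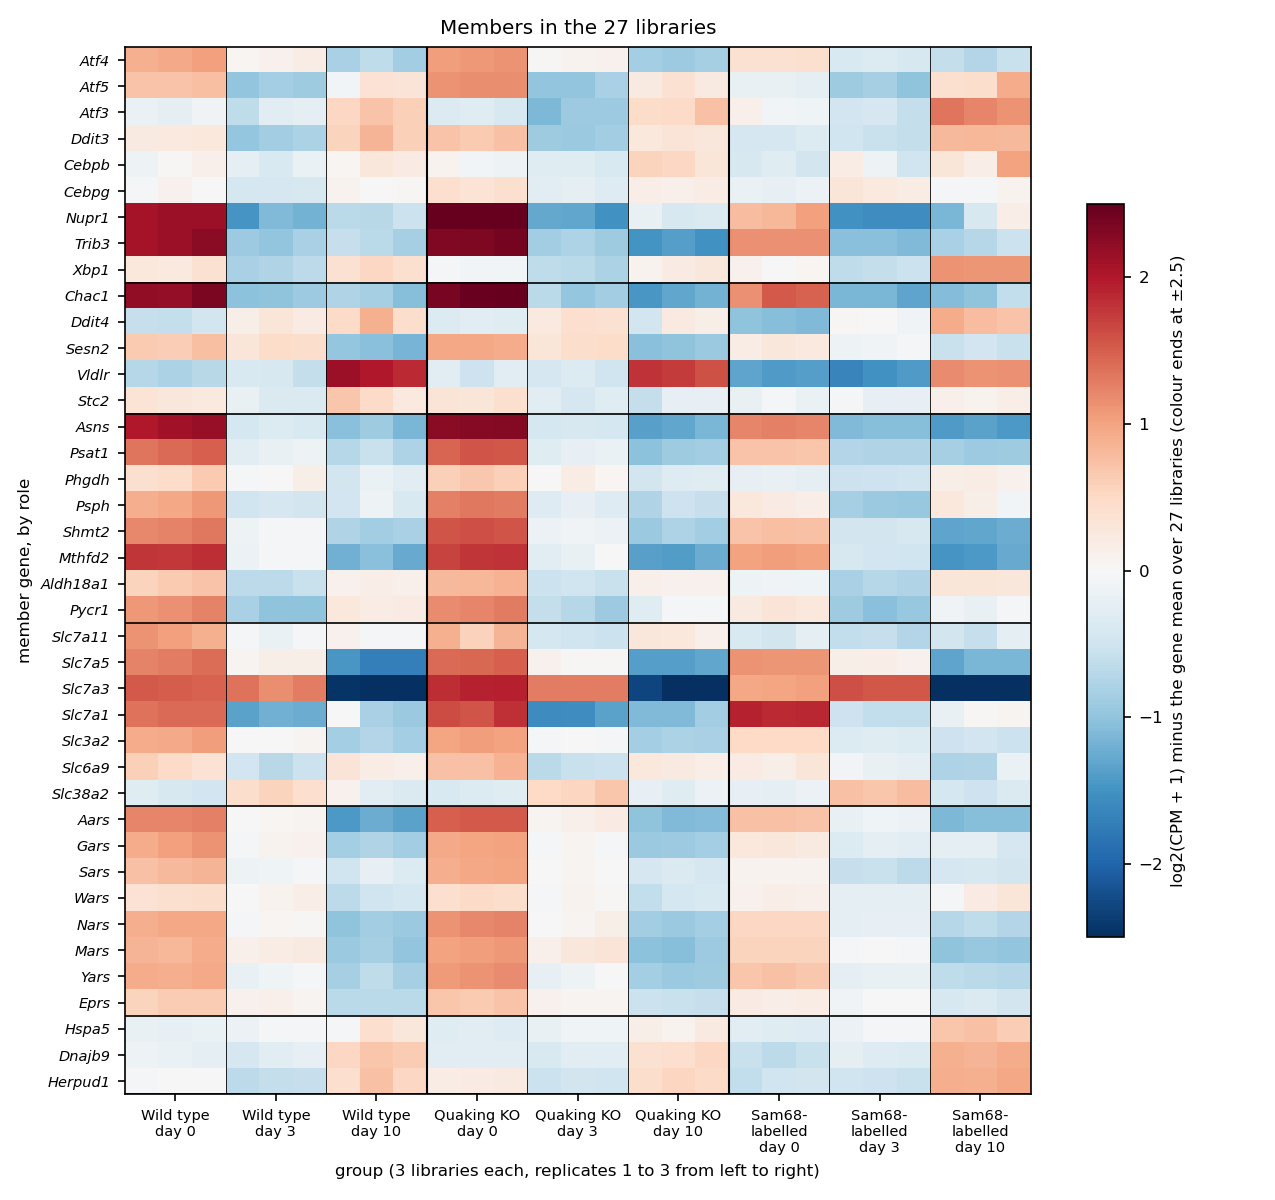
Log2(CPM + 1) of the 40 genes minus the mean of each gene over the 27 libraries, in rows by role and columns by line and day, with colour ends at 2.5 log2 units either way. The day 0 columns are the highest for most synthesis enzymes, transporters and synthetases in every line, and the Vldlr row is highest at day 10.

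Whether a line's course differed from that of wild type was tested with the interaction of line and day. For Quaking KO between days 0 and 3, 14 members had a lower change than in wild type and 1, Xbp1, a higher one; of the 19949 genes tested, 15.9% were called, 9.45% higher and 6.45% lower. In Xbp1 the fall of Quaking KO, from 61.4 ± 0.902 to 39.1 ± 2.35 CPM, was smaller than that of wild type, from 78.6 ± 3.83 to 37.9 ± 2.22, by 0.40 ± 0.07 (adjusted p = 0.000708). Ddit3 fell by more than in wild type, the difference being -0.52 ± 0.10 (adjusted p = 0.00144). For the step to day 10, 1 member had a higher and 3 a lower change than in wild type; of the 21017 genes tested, 3.58% were called, 2.03% higher and 1.55% lower. That count of 4 became 8 with the replicate block or with no filter, 9 with DESeq2, 7 with protein-coding genes only or without wild-type day 10 replicate 1, and 2 without Quaking KO day 3 replicate 1 or wild-type day 3 replicate 2 or 3. Trib3 differed by -0.99 ± 0.15 (adjusted p = 0.00286).

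For the Sam68-labelled line between days 0 and 3, 24 members had a higher change than in wild type and 1 a lower one; of the 21008 genes tested, 33.8% were called, 18% higher and 15.9% lower. The median difference was 0.27 over the members and 0.02 over all genes. Ddit3 fell from 8.52 ± 0.110 to 3.38 ± 0.244 CPM in wild type and stood at 5.12 ± 0.167 and 4.48 ± 0.155 in the Sam68-labelled line, a difference of 1.10 ± 0.10 (adjusted p = 7.47e-08). Atf5 differed by 0.98 ± 0.10 (adjusted p = 1.49e-07). For days 3 to 10, 22 had a higher and 6 a lower change; of the 21541 genes tested, 54.2% were called, 30.3% higher and 23.9% lower. Library totals alone gave 12 higher and 8 lower there, and protein-coding genes alone 14 and 8. Sesn2 fell from 146 ± 8.44 to 52.4 ± 3.69 CPM in wild type and from 104 ± 3.66 to 75.6 ± 2.22 in the Sam68-labelled line, a difference of 1.04 ± 0.09 (adjusted p = 5.78e-07). The same test gave 16 higher and none lower among the 20 other ER folding and degradation genes, and 12 higher and 1 lower among the 17 sensors and eIF2 control genes, where library totals alone gave 13 and 1, and 7 and 2.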

How the data were processed

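Total RNA from wild-type, Quaking KO and Sam68-labelled E14 cells was depleted of ribosomal RNA and sequenced from stranded libraries as paired reads of 125 bases, per the labels' protocols. Per the submitters' processing notes, the tools include bcl2fastq 2.17.1.14 and STAR 2.5.3a with build GRCm38 (mm10). The deposited values are raw read counts per gene as the authors made them, 1 file per library. Which program counted the reads, with what strand setting and on which annotation, is not given in the sources used here. Of the 51826 gene identifiers, 51633 (99.6%) were matched to symbols.

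Counts were tested with the quasi-likelihood test of edgeR 4.0.16 (R 4.3.3, limma 3.58.1) after filtering (minimum count 10, minimum total 15) and TMM scaling. The 9 libraries of a day were fitted together for comparisons between lines, the 9 libraries of a line for its time course, and the 12 libraries of 2 lines and 2 days for interactions. P-values were Benjamini-Hochberg adjusted over all genes tested and called under 0.05. The standard error given with a log2FC is the absolute log2FC divided by the square root of the F statistic of its test. Printed CPM are counts divided by library total times TMM factor over all 27 libraries, with no pseudocount. The model was also run on simulated counts of independent libraries with known changes in a small set of genes. Such data do not cover comparisons in which most genes are called, or libraries that share deviations. No result here rests on that run. No 2 libraries of a group agreed within counting noise, so none was treated as a repeat deposit of another.

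For each comparison the 2 largest called rises and falls with a mean of at least 1 CPM are described, for an interaction the 2 largest of each sign, and other members as examples of their role. Of a list of pathway genes at most its largest called rise and fall are named. Members and lists were chosen with earlier results of these data known, and members given as examples beyond the rule were picked after their values were seen. Replicate numbers come from the labels, and same-numbered libraries were checked for shared deviations from their group means. In wild type and Quaking KO at day 3 every such pair correlated, with r from 0.15 to 0.49. Their pairing was inferred from this alone, and the main fits use no block. In no other pair of groups compared did every correlation exceed 0.1. Alternatives were median-of-ratios size factors, no filter, DESeq2 1.42.0, protein-coding genes alone, the replicate block, only the 6 libraries compared and leaving out each library, and, added after seeing the data, library totals alone and the block on the 6 libraries compared for Quaking KO against wild type. Promoters and their motifs come from RefSeq (GRCm38.p6), the first listed window per gene. Of 50-base windows of a gene's exons, those found in another gene were counted as shared.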

Additional observations from a re-analysis of the deposited data

Results flagged for a closer look

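By the interaction of line and day in edgeR's quasi-likelihood test, 15.9% of the 19949 genes tested were called for Quaking KO between days 0 and 3. The change of this line differed from that of wild type in 15 of 40 members. Among them Nupr1 differed by a log2FC of -0.76 ± 0.22 (adjusted p = 0.0225), with means of 24.6 and 0.666 CPM in Quaking KO against 17.5 and 0.801 in wild type, and lost its call without wild-type day 3 replicate 2 (adjusted p = 0.115) or 3 (0.0754) or Quaking KO day 3 replicate 3 (0.0836). Xbp1 differed by 0.40 ± 0.07 (adjusted p = 0.000708). Slc7a11 differed by -0.75 ± 0.24 (adjusted p = 0.0445) at levels of at most 3.01 CPM, and leaving out any of 8 libraries ended that call (adjusted p from 0.074 to 0.109).

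From day 3 to day 10 the change of Quaking KO differed in 4 members, in 8 with the replicate block and in 2 to 7 with 1 library left out. Over all 21017 genes tested, 3.58% were called. Trib3 differed by -0.99 ± 0.15 (adjusted p = 0.00286), with a fall in Quaking KO from 6.45 to 3.84 CPM beside 6.15 and 7.24 in wild type. Stc2 differed by -0.85 ± 0.18 (adjusted p = 0.0202), a call lost without Quaking KO day 3 replicate 1 (adjusted p = 0.0541) or 3 (0.0532) and without wild-type day 3 replicate 2 (0.0632) or 3 (0.0632). Slc7a11 differed by 1.48 ± 0.25 (adjusted p = 0.00492), going from 0.414 to 1.33 CPM in Quaking KO and from 0.877 to 0.996 in wild type.

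In the Sam68-labelled line 25 members changed differently from wild type between days 0 and 3, beside 33.8% of the 21008 genes tested. Ddit3 differed by 1.10 ± 0.10 (adjusted p = 7.47e-08) and Atf5 by 0.98 ± 0.10 (adjusted p = 1.49e-07), while Vldlr differed by -0.51 ± 0.11 (adjusted p = 0.00106), with 6.96, 6.53 and 6.70 CPM at day 0 and 5.37, 6.01 and 6.54 at day 3 beside 11.1, 10.5 and 11.3 and 14.3, 14.0 and 12.2 in wild type. From day 3 to day 10, 28 members differed, beside 54.2% of the 21541 genes tested. The member count was lower with protein-coding genes alone or library totals alone, as given above. Sesn2 differed by 1.04 ± 0.09 (adjusted p = 5.78e-07) and Wars by 1.04 ± 0.12 (adjusted p = 5.09e-06), the latter with means of 86.5 and 114 CPM beside 108 and 70.1. Slc7a3 differed by -0.92 ± 0.20 (adjusted p = 0.00113) and Slc6a9 by -1.36 ± 0.23 (adjusted p = 0.0002).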

How the results depend on the processing

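In 16 of the 20 comparisons the count of called members stayed within 1.5 times its value under every alternative. That rule takes no account of direction. With library totals alone, the balance of 16 higher and 11 lower in the Sam68-labelled line against wild type at day 10 was reversed, as given above. That of 22 higher and 6 lower in its interaction of days 3 and 10 was narrowed. For Quaking KO against wild type at day 3 (2 called), DESeq2 called 4, protein-coding genes alone 5 (2 higher, 3 lower), the replicate block 4 and the block on the 6 libraries compared 7. At day 10 (9 called), only the 6 libraries compared gave 4 and the block on these 5, and leaving out single libraries gave 4 to 12, with 4 without Quaking KO replicate 1 and 5 without Quaking KO replicate 2 or wild-type replicate 2. For the Quaking KO interaction of days 0 and 3 (15 called) leaving out single libraries gave 9 to 16, with 9 without wild-type day 3 replicate 3. For that of days 3 and 10 (4 called), no filter gave 8, DESeq2 9, protein-coding genes alone 7 and the replicate block 8, and leaving out single libraries gave 2 to 7, with 2 without Quaking KO day 3 replicate 1 or wild-type day 3 replicates 2 or 3 and 7 without wild-type day 10 replicate 1. The causes were not tested, and the share of all genes called under each alternative is not given here. The day 3 groups taken as paired are also part of both Quaking KO interactions. There the block moved the count from 15 to 19 for days 0 and 3 and from 4 to 8 for days 3 and 10. Elsewhere libraries share only a number. In 0 of the 18 pairs of groups that share a day or line, the one taken as paired included, every library correlated best with its own number.

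No value described by the naming rule changed sign, and 68 of 73 kept their call under every alternative. Library totals alone moved the median of all genes by over 0.1 in 10 comparisons, to between -0.18 and 0.25. No list's median that the text gives changed sign with it or with median-of-ratios factors. Group means were under 1 CPM, and rest on few counts, for Nupr1 at day 3 in all lines and for Slc7a11 in all groups but wild type and Quaking KO at day 0 and Quaking KO at day 10.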
